A study of Mus musculus with 4 samples.

Results

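Polycomb repressive complex 2 (PRC2) was followed through the transcripts of 10 subunit genes in embryonic mouse hearts that were targeted for Hdac3, a histone deacetylase. The genes were Ezh1, Ezh2, Eed, Suz12, Rbbp4, Rbbp7, Jarid2, Phf1, Mtf2 and Phf19. They were chosen by name: every non-control probe whose gene name in the scanner files is 1 of the 10 was taken, which gave 17 of the 39429 probes on the array. Of these probes, 15 passed the filter on dim signals, and all 10 genes had at least 1 probe that passed, among 19614 genes tested.

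Hearts were microdissected at embryonic day 9.5 from a cross of Nkx2.5Cre; Hdac3f/+ with Hdac3f/f mice on a mixed CD1/B6/129 background. Mutant hearts carried Nkx2.5Cre and 2 floxed alleles of Hdac3 (Nkx2.5Cre; Hdac3f/f), and the controls were littermates given as Hdac3f/f, so the floxed alleles are common to both groups and the Cre is not. The Cre is driven by Nkx2.5, a gene of the heart-forming lineage, so heart cells outside that lineage would keep Hdac3, and loss of Hdac3 cannot be told apart from presence of the Cre. Each of 4 two-colour arrays compared RNA of mutant hearts with RNA of control hearts, which gives n = 4 pairs of pools, called biological replicates by the labels. The series' design text gives 3 hearts in each pool. With 4 arrays, precision is limited throughout.

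PRC2 places methyl groups on lysine residues of the histone H3 tail and thereby marks genes for silencing. Ezh1 or Ezh2 is the enzyme, Eed and Suz12 hold it in an active form, and Rbbp4 or Rbbp7 binds the histone. Further subunits divide the complex into forms: Phf1, Mtf2 and Phf19 are the Polycomb-like proteins of one form and Jarid2 is the defining cofactor of the other. In the developing heart, PRC2 is known for keeping genes of other lineages and of earlier stages silent, and Hdac3 has been reported to work with it. The arrays measured transcripts, and neither protein nor histone methylation was measured.

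The direction of every ratio needs a caution. The labels place mutant RNA in Cy5 on all 4 arrays. The columns of the authors' deposited table, which are named as mutant against wild type, ran with the scanner's Cy5 over Cy3 on arrays 1 and 2, where slopes were 1.03 and 1.01, and opposite to it on arrays 3 and 4, where they were -0.99 and -1.01. Ratios here are log2 of mutant over control with the signs of that table, so their direction is likely, from its column names, and not settled. The mean with all arrays read as labelled is given beside it as the alternative. Under that reading the mutant is in Cy5 throughout, so a difference of the dyes cannot be told apart from one of genotype. Embryonic stem cells are named in the description of replicates 2 to 4, although every other label of theirs names hearts. In both channels of all 4 arrays, cardiac actin, Actc1, and troponin T, Tnnt2, lay at or above the 98.9th percentile of probes, all 14 heart muscle markers were well above background, and 10 of 14 pluripotency markers were too. Over all genes, 18936 of 30139 had a probe well above background in all 8 channels, so the pluripotency count is near that of genes in general. Of the defining pluripotency genes, Nanog (59.8th to 63.9th percentile) and Zfp42 (31.2nd to 42.1st) were well above background in 8 of 8 channels, Sox2 in 1 and Pou5f1 in 0. The Hdac3 probe read lower in the mutant pools, at -0.22, -0.50, -0.52 and -1.15, with a mean of -0.60 ± 0.39 (SD, n = 4; limma, adjusted p = 0.589) and of 0.24 as labelled. Whether this probe lies in the deleted part is unknown here.

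The probes show what was measured for each gene, and a few are printed because their readings differ. They are 60-base oligonucleotides, with positions in mm9 from the scanner files; no mm9 annotation was used here, so exon and UTR are not given. The next sequences are the opening 30 bases, 5′ to 3′, of the brightest probes of Rbbp4 (chr4:128986934-128986993, minus strand), Rbbp7 (chrX:159216593-159216652, plus strand), Phf19 (chr2:34749588-34749646, minus strand) and Ezh2 (chr6:47480307-47480366, minus strand).
Rbbp4: ctggcagttgttccactggtgaactgtcaa
Rbbp7: gcctttgattcaactgtcattttctcaaac
Phf19: gtcaaatttgtggcttcctgttggcttcag
Ezh2: gctgcaaagtgttttgtaccagtgagtttt
Rbbp4 and Rbbp7 encode closely related proteins, and Ezh1 and Ezh2 likewise. Probes of different member genes shared at most a run of 10 bases. A pair of further probes is shown whole, the second Rbbp7 probe (chrX:159212501-159212560, plus strand), which read differently from the brightest on array 3, and the Ezh1 probe that was well above background in 0 of 8 channels (chr11:101054534-101054593, minus strand).
Rbbp7 second probe: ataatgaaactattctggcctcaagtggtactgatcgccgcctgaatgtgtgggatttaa
Ezh1 dim probe: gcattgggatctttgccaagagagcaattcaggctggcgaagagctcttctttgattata
Each of these 2 probes has at least 1 reading frame without a stop codon over its length. Most other member probes have one too, so this does not set the 2 apart.

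No PRC2 subunit passed the test for a difference between mutant and control hearts. At an adjusted p below 0.05, 0 of the 10 genes were called (limma, with Benjamini-Hochberg adjustment over all genes), where 0 of 19614 genes, or 0%, were called in all. At an unadjusted p below 0.05 there was 1 member, Phf19, beside 1648 of all genes (8.4%). The adjusted p of the members ran from 0.589 for Phf19 to 0.989 for Eed. Of the 10 genes, 5 had a mean ratio above 0 and 5 below, and their median was -0.0087, against 0.011 over all genes. The member with 1 sign above 0 on all 4 arrays was Rbbp4 (1 of 10; background 10%), and those below 0 on all 4 were Rbbp7 and Phf19 (2 of 10; background 9.71%). Together 3 of 10 had 1 sign on all arrays, where 19.7% of all genes did. These shares are close to what all genes gave. The levels of mutant and control pools overlapped for all 10 genes, and over all genes the levels did not overlap in 2.71%.

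**Figure D1:**
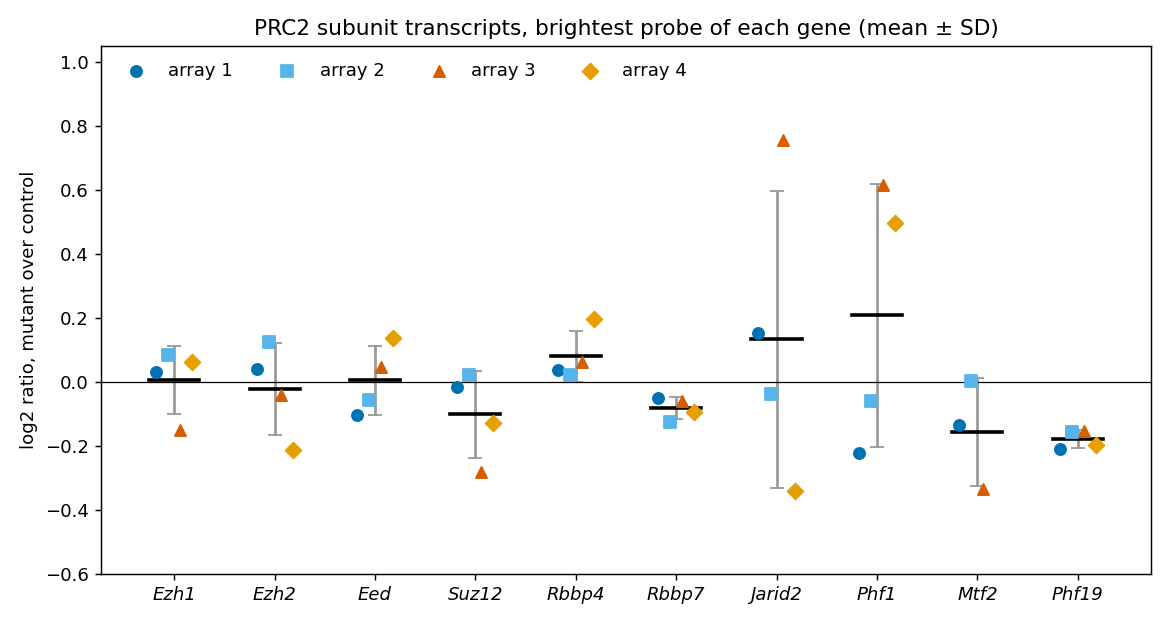
Log2 ratio of mutant over control for the brightest probe of each of the 10 PRC2 genes, with 1 point per array, the mean as a black bar and the SD as a grey bar; array 4 gave no value for Mtf2. Phf19 and Rbbp7 sit below 0 on every array within a narrow band, and Jarid2 and Phf1 spread most, with SDs of 0.46 and 0.41.

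The catalytic subunits were near 0. Ezh2, the enzyme that dominates in dividing cells, had log2 ratios of 0.041, 0.12, -0.041 and -0.21 on arrays 1 to 4. It was thus above 0 on arrays 1 and 2 and below on arrays 3 and 4, with a mean of -0.023 ± 0.14 (SD, n = 4; limma 95% interval -0.23 to 0.18; adjusted p = 0.949) and of 0.10 as labelled. In terms of the dyes, Ezh2 was brighter in Cy5 on all 4 arrays; over all genes with 4 values, 26.8% had 1 sign of Cy5 over Cy3 on all of them. Its log2 levels were 12.16, 12.28, 12.17 and 12.11 in the mutant and 12.11, 12.16, 12.20 and 12.32 in the control channels, between the 86.2nd and the 87.4th percentile of probes. The mutant and control levels lie within the same narrow band.

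Ezh1, the other enzyme, which is retained in cells that divide little, had ratios of 0.029, 0.084, -0.15 and 0.062 at its brightest probe. They averaged 0.0057 ± 0.11 (SD, n = 4; limma 95% interval -0.18 to 0.19; adjusted p = 0.987) and 0.051 as labelled, with array 3 alone below 0. Its other tested probes had means of 0.083 and -0.086, so the probes of Ezh1 did not share a sign. The SD over arrays of each of these probes was larger than its mean. Of the 4676 genes with several tested probes and full values, 59.1% had means of 1 sign. Ezh2 minus Ezh1, the shift between the enzymes within an array, was 0.012, 0.040, 0.11 and -0.28, with a mean of -0.028 ± 0.17 (SD, n = 4; exact two-sided sign-flip permutation test, p = 1, adjusted p = 1 over 6 pairs). The smallest p that this test can give with 4 arrays is 0.12, so no pair could pass. A shift between Ezh1 and Ezh2 was not seen beyond the spread of the arrays.

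The core partners did not pass the test either. Eed, which reads the methyl mark and stimulates the enzyme, had ratios of -0.10, -0.058, 0.045 and 0.14. Arrays 1 and 2 were below 0 and arrays 3 and 4 above, their mean came to 0.0050 ± 0.11 (SD, n = 4; limma 95% interval -0.18 to 0.19; adjusted p = 0.989), and the mean as labelled was -0.086. Eed was brighter in Cy3 on all 4 arrays, the reverse of Ezh2. Its log2 levels lay between 13.32 and 13.44 in the mutant and between 13.30 and 13.46 in the control channels. Those ranges are nearly the same.

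Suz12, the scaffold on which the complex assembles, had ratios of -0.016, 0.020, -0.28 and -0.13. It was below 0 on 3 of 4 arrays and lowest on array 3, with a mean of -0.10 ± 0.14 (SD, n = 4; limma 95% interval -0.30 to 0.098; adjusted p = 0.710) and of 0.10 as labelled. The log2 level of array 3 in the mutant channel was 11.27, the lowest of the 8, and the others lay between 11.53 and 11.65.

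**Figure D2:**
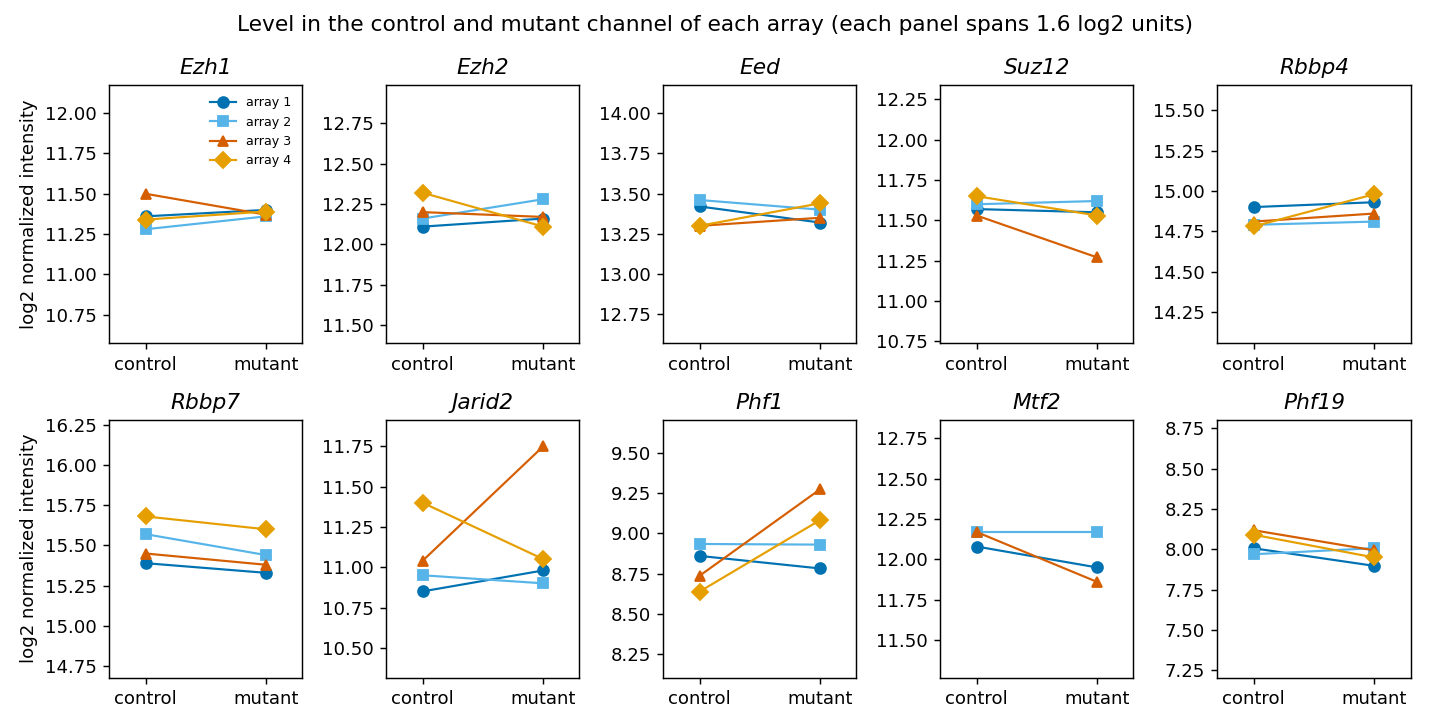
Log2 normalized intensity of the brightest probe in the control and the mutant channel, 1 panel per gene, with a line joining the channels of 1 array; each panel spans 1.6 log2 units, and levels of different probes are not comparable. The lines of Ezh1, Ezh2 and Eed are nearly flat, whereas Jarid2 rises on array 3 and falls on array 4.

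The histone-binding subunits Rbbp4 and Rbbp7, which also serve other chromatin complexes, lay on opposite sides of 0. Rbbp4 had ratios of 0.038, 0.022, 0.063 and 0.20, all above 0, with a mean of 0.080 ± 0.079 (SD, n = 4; limma 95% interval -0.098 to 0.26; adjusted p = 0.746) and of -0.050 as labelled. Its second probe gave -0.051, 0.096, 0.038 and 0.19, a mean of 0.068 with 1 array below 0. Array 4 was the highest at both probes.

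Rbbp7 had ratios of -0.052, -0.13, -0.059 and -0.095 at its brightest probe, all below 0. They averaged -0.083 ± 0.034 (SD, n = 4; limma 95% interval -0.25 to 0.085; adjusted p = 0.719), and only 1.04% of all genes had a smaller SD over the arrays. As labelled the mean was -0.0057. The second Rbbp7 probe was also below 0 on all 4 arrays, at -0.24, -0.12, -0.99 and -0.13, with a mean of -0.37 ± 0.42 (SD, n = 4; adjusted p = 0.579 over all probes) and of 0.19 as labelled. The value on array 3 stands far from the other 3, and the brightest probe on the same array read -0.059. With the intensities renormalized from the scanner files, array 3 still gave -0.98 at the second probe and -0.073 at the brightest. The log2 level of the second probe on array 3 was 13.11 in the mutant channel and 14.09 in the control channel, against 13.63 and 13.87 on array 1. That gap on array 3 was present in 1 probe of the gene and not in the other.

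The difference between the 2 chaperones, Rbbp4 minus Rbbp7, was 0.090, 0.15, 0.12 and 0.29 on arrays 1 to 4. It was above 0 on 4 of 4 arrays, with a mean of 0.16 ± 0.088 (SD, n = 4). The exact two-sided sign-flip permutation test gave p = 0.12, the smallest it can give, and an adjusted p of 0.75 over 6 pairs. Read as labelled, this mean was -0.044.

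**Figure D3:**
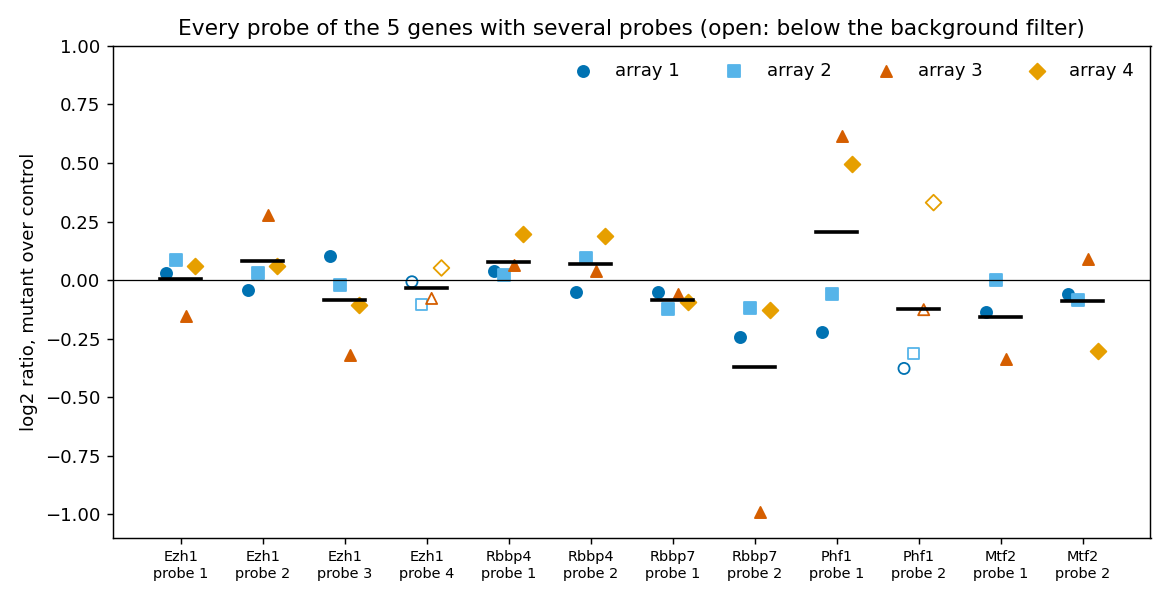
Log2 ratio of mutant over control at every probe of the 5 genes with several probes, numbered from the brightest, with 1 point per array and the mean as a bar; open symbols mark the 2 probes below the background filter. Both Rbbp7 probes lie below 0 on every array, and the second has 1 far value, -0.99 on array 3.

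The Polycomb-like proteins, which bind CpG-rich DNA and recognise a methyl mark of transcribed genes, gave the smallest p of the set. Phf19 had ratios of -0.21, -0.16, -0.15 and -0.20. These 4 values lie close together, and 0.627% of genes had a smaller SD. Phf19 averaged -0.18 ± 0.028 (SD, n = 4), or 0.883 times the control level, with a limma 95% interval of -0.35 to -0.013. It did not pass over all genes (adjusted p = 0.589), and 6.43% of genes had a smaller p. As labelled the mean was -0.0045. Renormalized from the scanner files, Phf19 gave -0.11, 0.038, -0.13 and -0.14, a mean of -0.084, with array 2 then above 0. The scanner software's own ratio gave -0.23, -0.18, -0.18 and -0.23. Phf19 was dim, at the 54.8th to the 57.2nd percentile, and its log2 levels were 7.90 to 8.01 in the mutant and 7.97 to 8.12 in the control channels and overlapped.

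Mtf2 had ratios of -0.14, 0.0010 and -0.34 on arrays 1 to 3. Array 4 has no value for it in the authors' deposited table, and its spot there carried an outlier flag in the scanner file, so the mean of -0.16 ± 0.17 (SD, n = 3; adjusted p = 0.676, limma) rests on 3 arrays. The mean as labelled was 0.067. Its dim second probe gave -0.061, -0.083, 0.090 and -0.30, with a mean of -0.089. The 2 probes did not have the same sign on array 2 or on array 3. Renormalized from the scanner files, the second probe gave 0.14, 0.088, 0.089 and -0.19, and its mean moved above 0, to 0.030.

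Phf1 had ratios of -0.22, -0.060, 0.62 and 0.50. Arrays 1 and 2 were below 0 (mean -0.14) and arrays 3 and 4 above (mean 0.56), so the overall mean of 0.21 ± 0.41 (SD, n = 4; adjusted p = 0.695, limma) describes no array. Without replicate 3 the mean was 0.071, without replicate 4 it was 0.11, and without replicate 1 it was 0.35. Cy3 exceeded Cy5 on all 4 arrays, and read as labelled the mean was -0.35 with an adjusted p of 0.229. With a dye term in the fit, the mean kept its value of 0.21 and its adjusted p was 0.297. The second Phf1 probe was well above background on 1 of 4 arrays in the mutant and on 1 of 4 in the control channel and was not tested.

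Between the Polycomb-like genes, Phf19 minus Phf1 was 0.012, -0.098, -0.77 and -0.69, a mean of -0.39 ± 0.40 (SD, n = 4; exact two-sided sign-flip permutation test, p = 0.25, adjusted p = 0.75). The arrays fell into a pair near 0 and a pair far below it. Phf19 minus Mtf2 had a mean of -0.018 ± 0.18 and Mtf2 minus Phf1 one of -0.27 ± 0.59, each over 3 arrays, where the smallest exact two-sided p is 0.25 (p = 1 for both; adjusted p = 1).

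Jarid2, a Jumonji-family protein without demethylase activity that is known for its part in heart development, had ratios of 0.15, -0.038, 0.76 and -0.34. They averaged 0.13 ± 0.46 (SD, n = 4; limma 95% interval -0.28 to 0.55; adjusted p = 0.823) and -0.075 as labelled. Array 3 was far above the others and array 4 far below, and without replicate 3 the mean was -0.076. Its mutant and control log2 levels were 11.75 and 11.04 on array 3 and 11.05 and 11.40 on array 4. Jarid2 was more variable over the arrays than 92.6% of genes. Jarid2 minus Mtf2, which sets 1 gene of each form of the complex side by side, was 0.29, -0.039 and 1.09 on arrays 1 to 3, a mean of 0.45 ± 0.58 (SD, n = 3; exact two-sided sign-flip permutation test, p = 0.5, adjusted p = 1). Array 4, where Jarid2 was at -0.34, is left out because Mtf2 has no value there. With the mean of each gene's probes, this difference was 0.273. A single pair of genes does not measure the balance of the 2 forms.

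**Figure D4:**
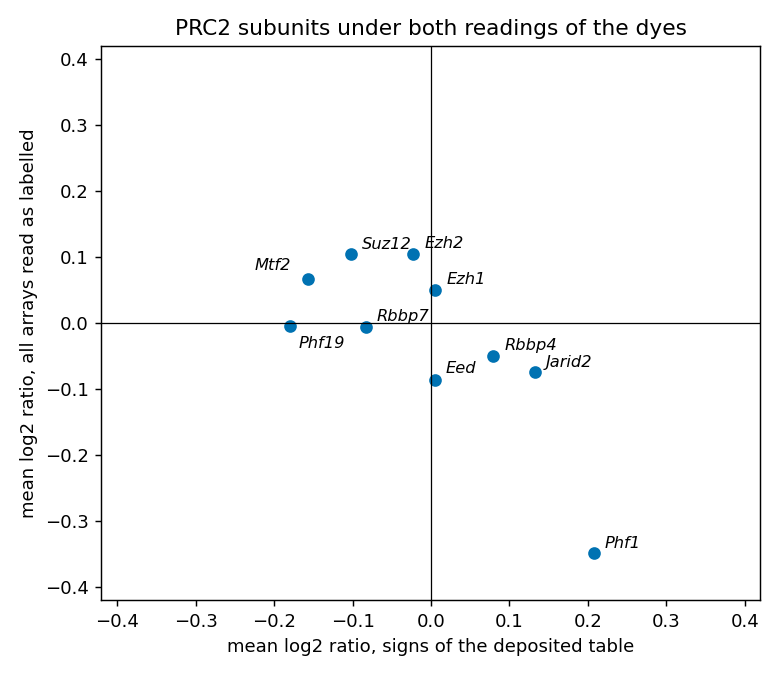
Mean log2 ratio of each PRC2 gene with the signs of the deposited table (horizontal axis) and with all arrays read as labelled (vertical axis). Ezh1, Rbbp7 and Phf19 keep their side of 0 under both readings, and the other 7 genes change it; Phf1 moves from 0.21 to -0.35.

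Array 3 had the widest ratios of the series, with an SD over all genes of 0.43 against 0.21 to 0.26 on the others, and it held the extreme value of Suz12, Jarid2, Phf1 and the second Rbbp7 probe. Markers of other cell types are given beside the PRC2 genes, and none of them was called in either direction (limma, adjusted p below 0.05). These lists and the gene lists below were chosen with earlier results of these data known. Their counts beside the shares of all genes are therefore a description only. With the signs of the deposited table, all 10 primitive erythroid markers had a mean below 0, against 46.5% of all genes, with a median of -0.40. Read as labelled, 4 of the 10 were below 0, with a median of 0.083. Their summed linear level was 320000 to 591000 in the mutant and 520000 to 666000 in the control channels, channels being assigned by the deposited table's signs here and below. All 7 tested endoderm markers (of 10 listed) were above 0, against 53.4% of all genes, with a median of 0.28, and 4 of 7 were as labelled, with a median of 0.063. Their sums were 19000 to 30200 and 19100 to 20600. Of the defining genes, Foxa2 was well above background in 7 of 8 channels and Ttr in 8. Of the 10 listed endoderm genes, 6 were well above background in all channels. A dim gene can pass the filter through the RNA in which it is high, so the shared sign of the 7 is a description only. All 7 epicardial markers were below 0 (median -0.17; sums of 5330 to 11100 and 6350 to 11000), and 4 of 7 were as labelled (median -0.073). Endothelial markers had a median of 0.19, with 7 of 10 above 0 (sums of 17700 to 21400 and 15800 to 19600), and of -0.032 as labelled, with 4 of 10 above 0. The 4 tested neural tube markers (of 8 listed) had a median of 0.047, with sums of 7540 to 10100 and 7000 to 7620, and of -0.23 as labelled. The 10 tested pluripotency markers (of 14 listed) had a median of 0.054, with sums of 6080 to 8990 and 5450 to 6320, and of -0.017 as labelled. Heart muscle markers had a median of -0.034, with 6 of 14 above 0 (sums of 1480000 to 1780000 and 1340000 to 1900000), and of 0.22 as labelled, with 13 of 14 above 0. Mutant and control sums overlapped in each of these lists. Their part in the values of the PRC2 genes was not tested. In pooled hearts, fewer cells of a type and less RNA per cell cannot be told apart.

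Ezh2 and its partners are known to be high in dividing cells, and cell cycle genes are therefore given beside them. Of 24 such genes, 20 lay below 0 on average and 4 above; the median was -0.052 and 0 were called, against 46.5% of all genes below 0. Read as labelled, 13 were below 0 and 11 above, with a median of -0.018. Medians by array were -0.097, -0.048, -0.031 and -0.10, while those of the 10 PRC2 genes were -0.034, -0.018, -0.050 and -0.095. Mcm4, a replication helicase subunit, was at -0.24 ± 0.20 (SD, n = 4; 0.17 as labelled), E2f2, a cell cycle transcription factor, at -0.21 ± 0.18 (0.028 as labelled), and the proliferation marker Mki67 at -0.23 ± 0.28 (-0.22 as labelled); none passed (adjusted p = 0.589 to 0.618, limma). The part of the cell cycle in the PRC2 values was not tested.

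The promoters of the members were read for the words of E2F and NF-Y, factors that act on cell cycle genes, and for the GC box and NRF1 words. RefSeq tables (GRCm38.p6) gave 12 start sites for the 10 genes, each with a window from 250 bases before to 50 after the start. All words were searched on both strands. E2F was represented by the word TTGGCGC, by its variant with other central letters, TTCGCGC, by a further variant searched in the same way, TTCCCGC, and by a last variant of the same length, TTGCCGC, and these may overlap each other. NF-Y was represented by the word CCAAT, the GC box by the word GGGCGG, and the NRF1 palindrome is given by name. An E2F word was found in 4 of 12 windows (Ezh2, Suz12, Rbbp4 and Phf19), against 9.57% of 32851 windows of the same length. NF-Y was found in 8 of 12 (37.4% of all), the GC box in 8 (35.7%) and NRF1 in 3 (4.6%). The E2F, GC box and NRF1 words contain CpG. Windows of the members hold 2 to 41 CpG dinucleotides, in most cases more than 7, the median of all windows. The shares over all windows were not matched for CpG, so they are no measure of enrichment. A match is a description of letters and no sign of binding. The 250 bases before the start are shown for Ezh2 (chr6:47595031-47595280, minus strand), which carries its E2F word just after the start, for the chaperones Rbbp4 (chr4:129335371-129335620, minus strand) and Rbbp7 (chrX:162760122-162760371, plus strand), which lay on opposite sides of 0, and for Phf19 (chr2:34913977-34914226, minus strand), the member of smallest p. Capitals mark E2F and NF-Y words.
Ezh2: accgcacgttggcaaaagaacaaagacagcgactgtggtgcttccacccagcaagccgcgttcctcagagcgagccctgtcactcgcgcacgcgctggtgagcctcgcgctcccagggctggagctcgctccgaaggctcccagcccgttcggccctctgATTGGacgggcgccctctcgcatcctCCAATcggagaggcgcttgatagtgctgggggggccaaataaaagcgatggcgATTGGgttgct
Rbbp4: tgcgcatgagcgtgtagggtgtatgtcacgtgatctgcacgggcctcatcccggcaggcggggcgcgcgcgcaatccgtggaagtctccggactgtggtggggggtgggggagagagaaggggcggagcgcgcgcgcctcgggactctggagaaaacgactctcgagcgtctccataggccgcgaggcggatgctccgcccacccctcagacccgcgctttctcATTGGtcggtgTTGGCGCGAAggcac
Rbbp7: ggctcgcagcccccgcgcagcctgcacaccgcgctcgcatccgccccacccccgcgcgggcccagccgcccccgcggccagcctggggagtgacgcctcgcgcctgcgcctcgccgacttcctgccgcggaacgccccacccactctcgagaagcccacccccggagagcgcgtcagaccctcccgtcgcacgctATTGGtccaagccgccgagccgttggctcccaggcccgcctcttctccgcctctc
Phf19: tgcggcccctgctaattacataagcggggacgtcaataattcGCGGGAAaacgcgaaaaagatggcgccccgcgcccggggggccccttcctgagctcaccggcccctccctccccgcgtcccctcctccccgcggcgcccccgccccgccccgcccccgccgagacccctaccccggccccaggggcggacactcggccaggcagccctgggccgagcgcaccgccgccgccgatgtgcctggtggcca
The windows of Rbbp4, Rbbp7 and Phf19 hold 39, 38 and 38 CpG dinucleotides and that of Ezh2 holds 31, where the median of all windows was 7.

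Genes that work with PRC2 or against it were summarised in the same way, and none was called in any list (limma, adjusted p below 0.05). Of 5 other PRC2 cofactors, 1 had a mean above 0 and 4 below. Ezhip, an inhibitor of the complex, was at -0.25, -0.24, -0.24 and -0.087, below 0 on all 4 arrays, with a mean of -0.21 ± 0.079 (SD, n = 4; adjusted p = 0.589; -0.041 as labelled). Epop, a cofactor of the Polycomb-like form, was at 0.092, 0.15, 0.27 and 0.12, above 0 on all 4, with a mean of 0.16 ± 0.079 (adjusted p = 0.609; -0.039 as labelled). Aebp2, the partner of Jarid2, was at -0.011 ± 0.18 (-0.0093 as labelled). Lcor and Lcorl, whose loci encode PRC2-associated proteins, were at -0.37 ± 0.81 and -0.075 ± 0.46 (0.63 and 0.36 as labelled), each above 0 on arrays 1 and 2 and below on arrays 3 and 4.

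PRC1, which modifies histone H2A and in some of its forms reads the PRC2 mark, had a median of -0.034 over 24 genes, with 8 means above 0 and 16 below. On all 4 arrays, 3 of its genes were above 0 and 3 below, near the background of all genes. The 3 genes named next were picked by smallest p, are the 3 below 0 on all arrays, and do not stand for the list. Phc3, a Polyhomeotic subunit, was at -0.25 ± 0.14 (SD, n = 4; -0.032 as labelled), Scml2 at -0.35 ± 0.33 (0.12 as labelled) and Pcgf6 at -0.22 ± 0.20 (0.15 as labelled), each below 0 on 4 of 4 arrays (adjusted p = 0.589, limma).

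The 7 enzymes and partners that remove the H3 or H2A marks had a median of -0.051, with 3 means above 0 and 4 below. Kdm6b, a demethylase that removes the PRC2 mark, was at 0.040, -0.022, 1.21 and 0.51. It was near 0 on arrays 1 and 2 and high on arrays 3 and 4, with a mean of 0.43 ± 0.57 (SD, n = 4; adjusted p = 0.612, limma) and of -0.42 as labelled. Asxl1, a cofactor of the H2A deubiquitinase, was at 0.087 ± 0.086 (0.0040 as labelled) and Asxl3 at -0.10 ± 0.23 (0.20 as labelled). The list of Trithorax and COMPASS genes, which also holds demethylases of the Kdm5 family, had a median of 0.069 (11 of 17 above 0). Kdm5b was above 0 on 4 of 4 arrays at 0.22 ± 0.14 (SD, n = 4; -0.089 as labelled), and Kdm5c, also a demethylase, and Rbbp5 were at 0.22 ± 0.24 and -0.26 ± 0.32, or 0.057 and 0.22 as labelled (adjusted p = 0.589 to 0.617, limma).

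Because Rbbp4 and Rbbp7 also belong to deacetylase and chromatin assembly complexes, 18 partners in those were counted. Their median was 0.018, with 12 means above 0 and 6 below, and 4 were below 0 on all 4 arrays (background 9.71%) and 1 above. Hdac2, a deacetylase bound by these chaperones, was at -0.27, -0.041, -0.36 and -0.55, with a mean of -0.30 ± 0.21 (SD, n = 4; adjusted p = 0.589, limma) and of 0.15 as labelled. Gatad2b was at 0.37 ± 0.41 (-0.12 as labelled) and Mbd2 at -0.26 ± 0.26 (0.12 as labelled), both of the NuRD complex.

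Developmental regulators that PRC2 commonly binds gave the highest median of these lists. Of 32 such genes listed, 17 passed the filter on dim signals, so the others gave no count. Of the 17, 11 had a mean above 0 (53.4% of all genes) and 6 below, 5 were above 0 on all 4 arrays (background 10%) and 1 below, and 0 were called. The median was 0.16, 0.071 as labelled and 0.024 from the renormalized scanner intensities. With probes well above background in all 8 channels it was 0.14. A dim gene can pass the main filter through the RNA in which it is high, so these counts are a description only. Lhx2, a LIM homeobox factor, was at 0.85, 0.66, 0.59 and 0.34, above 0 on every array, with a mean of 0.61 ± 0.21 (SD, n = 4; adjusted p = 0.589, limma) and of 0.14 as labelled. Six2, a homeobox factor, was at 0.35 ± 0.33 (-0.24 as labelled), above 0 on 3 of 4 arrays, and Dlx2, also a homeobox factor, at -0.29 ± 0.18 (0.10 as labelled), below 0 on 4 of 4 (adjusted p = 0.589). Tgfb1, a ligand gene fixed for reporting, was at 0.27, -0.017, 0.45 and 0.0087, with a mean of 0.18 ± 0.22 (SD, n = 4; adjusted p = 0.638, limma) and of -0.052 as labelled.

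**Figure D5:**
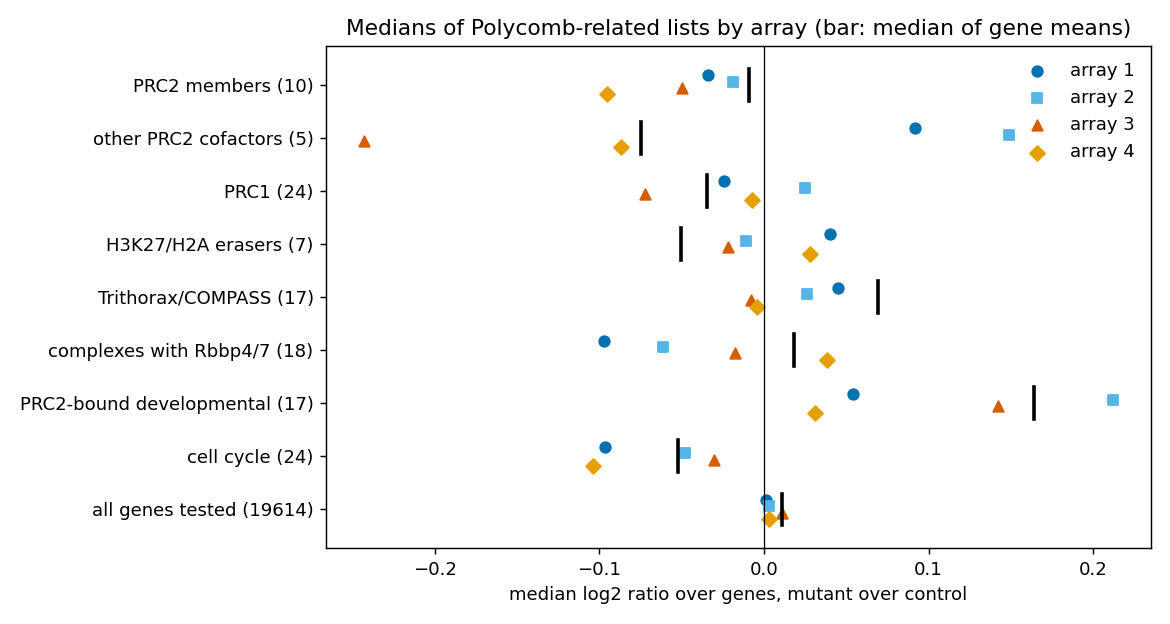
Median log2 ratio of mutant over control over the genes of each Polycomb-related list, with 1 point per array, the median of the gene means as a bar and the number of genes tested in brackets. The PRC2 genes lie below 0 by at most 0.095 on each array, and the list of PRC2-bound developmental genes lies above 0 on each array, with the median of all genes near 0.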

How the data were processed

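The members and lists were chosen with earlier results of these data known. The scanner files hold, per the file headers, mean and background intensity of each dye, made by Agilent Feature Extraction 11.5.1.1, and log10 ratios of Cy5 over Cy3 after the software's background subtraction and dye normalization; the submitters' processing notes name version 8.5.1.1. The authors deposited a table of log2 ratios, 43173 rows, of which 153 were controls, whose normalization was not given in the sources used here. Medians of its columns were -0.027, -0.017, 0.021 and 0.025. The log base follows from the slopes near 1 in size against the scanner's log2 ratio (probes with both signals above 2000).

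Rows of 1 probe name were averaged. A probe entered the test where either RNA, mutant or control, gave signal well above background on 4 of 4 arrays (25484 probes). A gene took its brightest probe, and 27508 probes were named by accession through RefSeq (GRCm38.p6). Ratios were tested against 0 with limma 3.58.1 in R 4.3.3 (lmFit, eBayes), adjusted over 19614 genes. The design fixed the deposited columns as the main values and assigned the channels from their slopes. Levels came from normexp (offset 50), loess with control spots at weight 0, and Aquantile normalization, without flagged spots (230 to 327 per array); no spot was saturated. By channel, 66.6% to 71.2% of probes exceeded background clearly. Named genes were the 10 members, Hdac3, Tgfb1, the markers that define a cell type, all genes of lists of 5 or fewer and the 3 of smallest p of each other list outside the cell type markers. On simulated ratios of 19614 genes, the test recovered 0% of log2 changes of 0.25, 32% of those of 0.5, 92% of those of 1 and 100% of those of 1.5, with 9 false calls. The spread of the simulated ratios is not given here, and the SD over all genes on the real arrays ran from 0.21 to 0.43. These shares are therefore a check of the test and not its power in these data. Alternatives covered the signs, the source of the ratio, centring, the filter, the probe, weights, dye, pairing and each replicate.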

Additional observations from a re-analysis of the deposited data

Results flagged for a closer look

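Of 25 sets of 4 array values examined for an array far from the others (member probes, pair differences and list medians), 1 was picked out, and chance flags about 1 in 20 such sets. It was the second Rbbp7 probe, at -0.992 on array 3 (log2, mutant over control) with -0.24, -0.12 and -0.13 on arrays 1, 2 and 4.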

How the results depend on the processing

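No PRC2 gene passed an adjusted p of 0.05 under any of 15 alternatives, and the smallest was 0.131, for Phf19 with array weights. Rbbp7 and Phf19 kept their sign in all 15 (Rbbp7 from -0.226 to -0.00575, Phf19 from -0.205 to -0.0045). The mutant is in Cy5 on every array used when all are read as labelled and when arrays 1 and 2 are taken alone. Genes called under these settings can therefore reflect dye as well as genotype, and the settings cannot tell them apart. Read as labelled, the arrays gave 330 genes called higher and 19 lower; the means were 0.105 for Ezh2, -0.086 for Eed, 0.104 for Suz12, -0.0495 for Rbbp4, -0.0748 for Jarid2, -0.349 for Phf1 and 0.067 for Mtf2; Ezh2 minus Ezh1 was 0.0543, Rbbp4 minus Rbbp7 -0.0438, Phf19 minus Phf1 0.344, Mtf2 minus Phf1 0.367 and Jarid2 minus Mtf2 -0.281; and list medians were 0.0226 for PRC1, -0.00875 for the erasers, -0.017 for Trithorax, -0.07 for the Rbbp4 and Rbbp7 partners and 0.0713 for the developmental genes. With the 2 arrays whose columns run with the labels alone, 18 genes were called higher and 2 lower, with Ezh2 at 0.0825, Eed at -0.081, Suz12 at 0.002, Phf1 at -0.142, Ezh2 minus Ezh1 at 0.026, Mtf2 minus Phf1 at 0.0745, PRC1 at 0.0197, the erasers at 0.009 and the partners at -0.0662. Array weights called 2 higher and 2 lower, with Ezh2 at 0.046, Eed at -0.0632, Phf1 at -0.0752, Ezh2 minus Ezh1 at 0.00353, the erasers at 0.0125, Trithorax at 0.0348 and the partners at -0.0598. The weights were 3.41 and 2.17 for arrays 1 and 2, where the mutant is in Cy5, and 0.275 and 0.492 for arrays 3 and 4. The weighted fit thus leans on arrays 1 and 2, and its calls and p-values can also reflect dye as well as genotype. Scanner intensities with normexp and loess gave Phf19 minus Mtf2 0.0788, erasers -0.0204, Trithorax 0.0289 and developmental genes 0.0244. Channels fitted without the replicate block, that is without the pairing on an array, gave 0.0598, -0.0204, 0.0289 and 0.0244 for these, and a dye term gave Phf19 minus Mtf2 0.021. The software's ratio put 3 members above 0, with Ezh1 at -0.00269 and Eed at -0.0174, and the mean of a gene's probes put the erasers at 0.00275, Rbbp7 at -0.226, then the member of smallest adjusted p (limma, 0.548), and Rbbp4 minus Rbbp7 at 0.3. Leaving out each replicate gave 0 to 2 genes called higher (2 without replicate 1), 3 to 4 members above 0, and ranges of -0.0203 to 0.0583 for Ezh1, -0.0713 to 0.0413 for Ezh2, -0.039 to 0.0413 for Eed, -0.0757 to 0.29 for Jarid2, 0.0713 to 0.351 for Phf1, -0.143 to -0.042 for Suz12 (highest without replicate 3), -0.235 to -0.067 for Mtf2 (without replicates 2 and 3), 0.041 to 0.0987 for Rbbp4 (lowest without replicate 4), -0.0747 to 0.0543 for Ezh2 minus Ezh1, -0.118 to 0.0525 for Phf19 minus Mtf2, -0.445 to 0.0745 for Mtf2 minus Phf1, -0.0367 to 0.0263 for the erasers and 0.0448 to 0.0963 for Trithorax. The cause of these changes was not tested. Of the tested probes, the second Mtf2 probe (40.0th to 47.9th percentile), the third Ezh1 probe (41.7th to 49.3rd) and Phf19 (54.8th to 57.2nd) were the dimmest.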
